A study of Danio rerio with 4 samples.

Results

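Cycling cells were the 295 cells, of 4783 kept, that carried UMIs of at least 3 different genes out of 15 known to be switched on when cells copy their DNA and divide. A UMI stands for 1 captured mRNA molecule. The genes were the S phase genes pcna, mcm2, mcm5, rrm2 and tyms, and the G2 and mitosis genes mki67, top2a, cdk1, ccnb1, ccna2, ube2c, aurkb, nusap1, cdca8 and birc5a. The rule used measured counts of these genes, so their own levels in the chosen cells are given as a description and were not tested. The cells were sorted from telencephalons of adult zebrafish, 3 to 7 months of age, all of which carried Tg[GFAP:dTomato]nns17Tg, in which a gfap promoter drives the red protein dTomato in radial glia and in cells that keep the protein after they leave that state. Cells positive for dTomato were sorted and sequenced in 4 libraries with the 10x Chromium method. Fish of the injured library with MTZ and the uninjured library with MTZ had a second transgene, Tg[mpeg1:NTR-EYFP]w202, in which the mpeg1 promoter of macrophages and microglia drives a nitroreductase that turns metronidazole (MTZ) into a cell poison. The injured library and the uninjured library came from fish labelled with the dTomato reporter alone. Injured fish were examined 3 days after a stab lesion, per the sample titles, while the treatment label names a stab lesion for every library. Each library was 1 pool of 7 telencephalons, so a difference between libraries has no replicate check. MTZ, the second transgene and the pool of fish cannot be told apart.

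Radial glia line the ventricle of the adult fish telencephalon and serve as its neural stem cells. Most of them rest outside the cell cycle, held there in part by Notch signalling through Notch3 and by Id proteins, and some enter the cycle, make progenitors and then neurons. After a stab wound radial glia of the zebrafish telencephalon are known to divide more, and inflammation takes part in that response. In the cell cycle cyclin D and cyclin E carry a cell into S phase, the MCM helicase and the polymerases copy DNA, and cyclins A and B with Cdk1 take it through G2 and mitosis.

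The 4 matrices held 4857 barcodes and 19512115 UMIs, of which cells with 300 or more genes and no more than 25% of UMIs from mitochondria were kept. No gene of the transgenes is among the features, so neither reporter could be checked. Pairs of libraries shared 0 to 6 barcodes, and 1 barcode was shared among cycling cells, by the uninjured library with MTZ and by the injured one. Markers of microglia were not lower in the libraries with MTZ: their summed level in cells outside the cycle was 2331 CPM (UMIs per 1000000) in the injured library with MTZ, 600 CPM in the uninjured library with MTZ, 666 CPM in the injured library and 116 CPM in the uninjured library. The removal of these cells by MTZ could therefore not be read from the files.

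The share of cycling cells was higher in both injured libraries than in their uninjured counterparts. They made up 7.69% of cells in the injured library with MTZ (125 of 1626 cells, exact Clopper-Pearson 95% interval 6.44 to 9.09%), against 2.15% in the uninjured library with MTZ (29 of 1348 cells, 1.45 to 3.08%). Without MTZ they made up 11.04% in the injured library (119 of 1078 cells, 9.23 to 13.1%), against 3.01% in the uninjured library (22 of 731 cells, 1.90 to 4.52%). The ratio of injured to uninjured was 3.57 with MTZ and 3.67 without, and the intervals of injured and uninjured libraries did not overlap in either arm. Between the injured libraries the share with MTZ was 0.696 times that without, and between the uninjured libraries 0.715 times. The intervals cover counting error only, and cells of 1 library are not replicates, so no share was tested.

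Depth enters these shares, since a cell with more UMIs has more chances to show 3 of the 15 genes. Cycling cells had a median of 6908 UMIs (injured with MTZ), 6137 (uninjured with MTZ), 9075 (injured) and 7255.5 (uninjured), against medians of 3768 (injured with MTZ), 2503 (uninjured with MTZ), 3650 (injured) and 3326 UMIs (uninjured) in other cells. Cycling cells were thus the deeper ones in every library. With every cell thinned to 1000 UMIs the shares were 3.59% (55 of 1530) in the injured library with MTZ and 1.20% (11 of 920) in the uninjured library with MTZ. They were 4.65% (48 of 1032) in the injured library and 1.30% (9 of 691) in the uninjured library. Thinning left out shallower cells, 96 (injured with MTZ), 428 (uninjured with MTZ), 46 (injured) and 40 (uninjured). The ratios of injured to uninjured were then 3.01 with MTZ and 3.57 without. The ratio of the injured library with MTZ to the injured library was 0.773, and between the uninjured libraries it was 0.918.

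**Figure D1:**
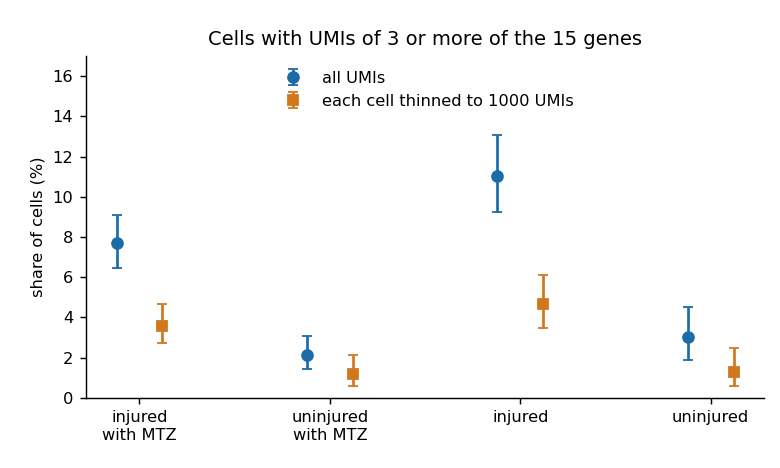
Share of cells with UMIs of at least 3 of the 15 genes in each library (y axis, percent), from all UMIs (circles) and with each cell thinned to 1000 UMIs (squares). Bars are exact 95% intervals for counting error. The injured libraries stand at 7.69% and 11.04% from all UMIs, above 2.15% and 3.01% in the uninjured ones, and the order stays after thinning.

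Background from free RNA in the droplets was looked at in cells with neuron markers. Most of them came from 1 library: 135 from the injured library with MTZ, against 5 (uninjured with MTZ) and 16 (injured). Among 162 cells with UMIs of at least 6 mature neuron markers, which should not divide, 27 had a UMI of pcna (16.7%, median depth 3779 UMIs). The share was 14.8% in all other cells (median 3255.5 UMIs) and 20.25% in the other cells of the injured library with MTZ. Whether a single pcna UMI was background was not tested. None of these 162 cells met the rule. Taking 3 counts as the limit that a count of 0 allows, this leaves a share of up to 1.85%, and the exact interval reaches 2.25%. That bound lies above the 2.15% of cycling cells in the uninjured library with MTZ. With few neuron-marker cells outside the injured library with MTZ, the part of background in the shares of the other libraries was not tested. None of the 295 cycling cells had 6 mature neuron markers, and 2 of them, both from the injured library with MTZ, had at least 6 microglia markers. Among cells taken as likely doublets by score, at 0.8% per 1000 barcodes, were 2 cycling cells of the injured library with MTZ and 3 of the injured library.

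The cycling cells were a graded set. They carried a median of 5 of the 15 genes and at most 15, with 130 cells at 3 or 4 genes and 64 cells at 10 or more. The 83 cells just inside the rule, at exactly 3 genes, had a median of 6110 UMIs, and after thinning 53.2% of them showed at least 3 of the replication and mitosis genes outside the rule. The 145 cells just outside it, at exactly 2 genes, had a median of 5163 UMIs, and 28.9% of them did so. Over all cycling cells this share was 81.7% (236 of 289 cells), with 82.1% (injured with MTZ), 80.8% (uninjured with MTZ), 81.4% (injured) and 81.8% (uninjured), against 2.68% (104 of 3884) of the other cells. The cells at the edge were therefore less clearly marked than the set as a whole, and some cells below the edge carried replication and mitosis genes.

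Among the genes of the rule pcna, the sliding clamp of DNA polymerase, had a UMI in 92.2% of cycling cells. Its level was 1405 (injured with MTZ), 1130.3 (uninjured with MTZ), 1151 (injured) and 1415 CPM (uninjured) in cycling cells. The helicase subunits mcm2 and mcm5 had a UMI in 65.4% and 66.1%, rrm2, which makes deoxynucleotides, in 69.8%, and tyms, thymidylate synthase, in 49.5%. Genes of G2 and mitosis were seen in fewer cells, from 12.5% for ccnb1, a cyclin of mitosis, to 44.4% for mki67, a protein that coats mitotic chromosomes. The shares for mki67 by library were 47.2% (injured with MTZ), 41.4% (uninjured with MTZ), 47.1% (injured) and 18.2% (uninjured), the last standing for 22 cells. Those for top2a, topoisomerase II, were 37.6% (injured with MTZ), 31.0% (uninjured with MTZ), 34.5% (injured) and 18.2% (uninjured). By contrast nusap1, a spindle protein, was seen in 24.0% (injured with MTZ), 24.1% (uninjured with MTZ), 26.1% (injured) and 36.4% (uninjured). By share of cells the uninjured library was therefore lowest for mki67 and top2a and highest for nusap1, the last from 8 of 22 cells (exact interval 17.2 to 59.3%). By level it was lowest for mki67 (201 CPM) and also for nusap1 (136 CPM). The level of top2a was lowest in the uninjured library with MTZ (140 CPM, against 178 CPM in the uninjured library).

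S phase genes marked nearly all cycling cells and G2 and mitosis genes a subset. Only 1 cell had no S phase gene, while 97 cells (32.9%) had none of the 10 G2 and mitosis genes, 81 cells had 1 or 2 of them and 117 cells (39.7%) had at least 3. Cells with none made up 30.4% (injured with MTZ), 37.9% (uninjured with MTZ), 30.3% (injured) and 54.5% (uninjured) of the cycling cells. Cells with at least 3 made up 39.2% (injured with MTZ), 44.8% (uninjured with MTZ), 40.3% (injured) and 31.8% (uninjured). In cells thinned to 1000 UMIs the UMIs of G2 and mitosis genes outnumbered those of S phase genes in 22.2% (24 of 108 cells, 14.8 to 31.2%) with MTZ after injury, against 21.7% (5 of 23 cells, 7.46 to 43.7%) with MTZ and no injury. Without MTZ they did so in 16.2% (17 of 105 cells, 9.72 to 24.7%) after injury, against 5.0% (1 of 20 cells, 0.127 to 24.9%) with no injury. These intervals overlap in both arms and cover counting error only, and no difference between libraries was tested. Both sets of genes belong to the rule, so this share describes the chosen cells and is not a share of G2 or mitotic cells. Without thinning the share over all libraries was 17.97% (53 of 295 cells).

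**Figure D2:**
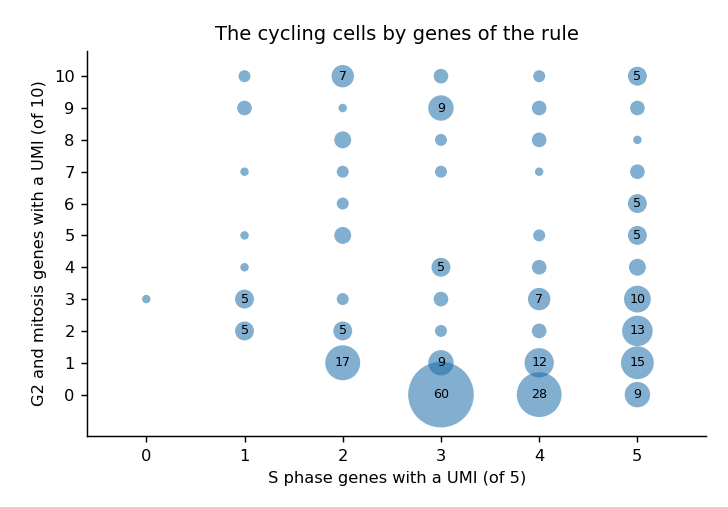
Numbers of cycling cells by how many of the 5 S phase genes (x axis) and of the 10 G2 and mitosis genes (y axis) had a UMI. Circle area is the number of cells, printed where it is at least 5. The 97 cells with no G2 or mitosis gene lie in the bottom row, and 60 of them carried exactly 3 S phase genes.

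To describe these cells beyond the 15 genes, UMIs were summed over the cycling cells and over the other cells of each library. The sums were compared with edgeR's quasi-likelihood test with library as a block. The 4 libraries, each of a different group, served as the replicates. Of 10379 genes tested, 19.1% were higher and 22.3% lower in cycling cells at a Benjamini-Hochberg adjusted p under 0.05, 41.4% in either direction, and the median log2 fold change of all genes was −0.13. These levels are shares of a cell's mRNA. Cycling cells also held more mRNA, with a mean of 8073 UMIs per cell (injured with MTZ), 5919 (uninjured with MTZ), 9890 (injured) and 7679 (uninjured), against 4322 (injured with MTZ), 2619 (uninjured with MTZ), 4356 (injured) and 3898 (uninjured) in other cells. The same test was therefore also run on UMIs per cell, a scale on which 57.8% of genes were higher, 2.96% lower and the median gene stood at 0.89. Because the rule favours cells with more UMIs, how much of this gap belongs to the cell cycle was not tested. A gene called lower on the CPM scale below holds a smaller share of the mRNA of cycling cells, and it need not be lower in UMIs per cell.

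**Figure D3:**
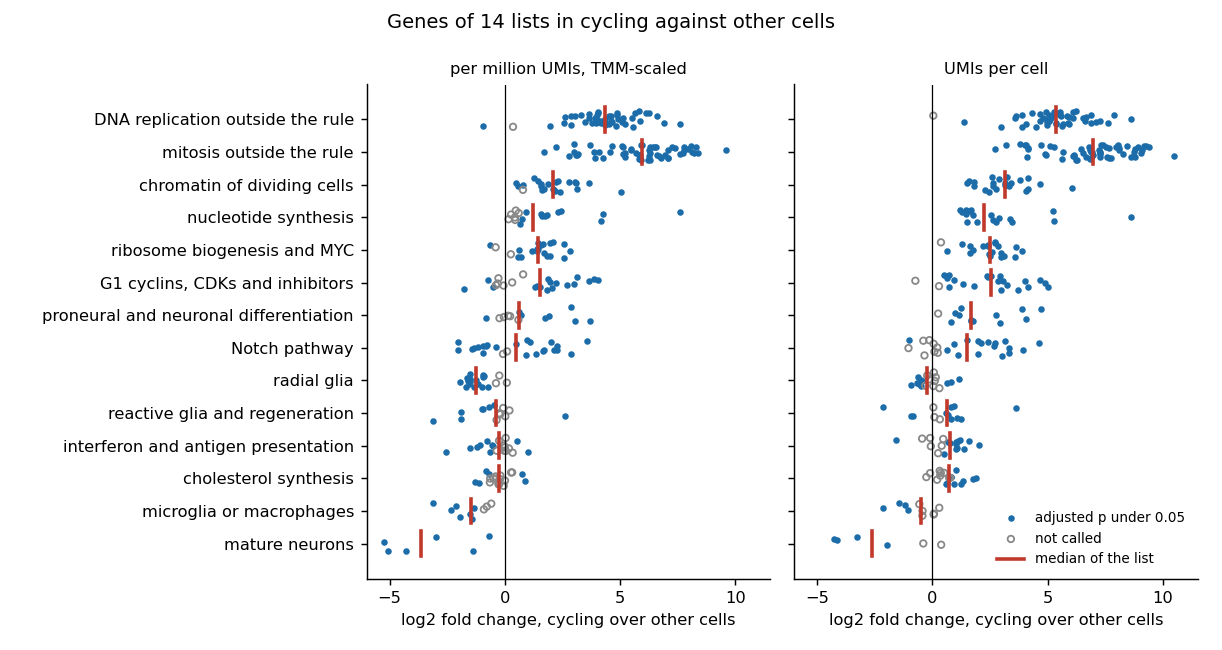
Log2 fold changes of the genes of 14 lists in cycling over other cells (x axis), in CPM on the left and in UMIs per cell on the right. Each point is a gene, filled where the adjusted p is under 0.05, and the red bar is the median of its list. The median of mitosis genes is 5.95 on the left, that of radial glia genes −1.25 on the left and −0.23 on the right.

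Genes of DNA replication and mitosis outside the rule rose with those inside it. This follows in part from the choice of cells and is given as a description of them. Of 48 replication genes that passed the filter on low counts, 46 were called higher, against 19.1% of all genes, with a median log2 fold change of 4.34. The cohesin acetyltransferase esco2 stood at 62.4 (injured with MTZ), 52.4 (uninjured with MTZ), 85.8 (injured) and 59.2 CPM (uninjured) in cycling cells, against 0.239 to 0.362 CPM in other cells (log2 fold change 7.59). The dUTPase dut stood at 689 to 1037 CPM, against 14.1 to 21.3 CPM (5.51), the chromatin remodeller hells at 320.3 to 443 CPM, against 5.43 to 14.5 CPM (5.57), and the methylation reader uhrf1 at 100.1 to 184 CPM, against 1.16 to 3.24 CPM (5.83). The exception was gmnn, the inhibitor of replication licensing geminin, which fell: it stood at 70.4 (injured with MTZ), 40.8 (uninjured with MTZ), 147 (injured) and 94.7 CPM (uninjured) in cycling cells, against 129.6 (injured with MTZ), 131 (uninjured with MTZ), 182 (injured) and 391.9 CPM (uninjured) in other cells (log2 fold change −0.96, SE 0.21, edgeR adjusted p = 8.93e-04). The ranges overlap across libraries, and within each library gmnn was lower in cycling cells. It did not pass the test in UMIs per cell (0.04, adjusted p = 0.895). Its partner cdt1, which loads the helicase, did not pass the test (log2 fold change 0.35, adjusted p = 0.396).

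All 59 mitosis genes that passed the filter, of 62 in the files, were called higher, against 19.1% of all genes, with a median of 5.95. The filter also kept genes with UMIs in cycling cells alone, and the cells were chosen by genes of the same process. The count is therefore a description of the chosen cells and no separate evidence. The kinesin kif20a, which acts in cytokinesis, had UMIs in cycling cells alone, at 40.6 (injured with MTZ), 58.3 (uninjured with MTZ), 22.1 (injured) and 35.5 CPM (uninjured), and none in 4488 other cells. The spindle motor kif11 stood at 35.5 to 146 CPM, against 0 to 0.308 CPM in other cells (log2 fold change 8.36), and the anaphase activator cdc20 at 23.7 to 81.6 CPM, against 0 to 0.463 CPM (7.93). The smallest rise was that of plk4, which starts centriole duplication (11.7 to 16.9 CPM, against 3.26 to 6.94 CPM, log2 fold change 1.68). Chromatin genes of dividing cells rose in 22 of 23 cases (median 2.10), suz12b being the exception (adjusted p = 0.0597). The microtubule destabiliser stmn1a rose most among them, at 650.1 (injured with MTZ), 775 (uninjured with MTZ), 467 (injured) and 687 CPM (uninjured) in cycling cells, against 12.9 to 25.2 CPM in other cells (log2 fold change 5.03, SE 0.17, edgeR adjusted p = 4.13e-16). With cells thinned to 1000 UMIs it was seen in 33.9% of cycling cells, against 1.78% of other cells and none of 157 neuron-marker cells. The nucleosome-binding protein hmgn2 reached 6913 (injured with MTZ), 7119.6 (uninjured with MTZ), 7030.4 (injured) and 5031 CPM (uninjured) in cycling cells, against 411 to 701 CPM in other cells (log2 fold change 3.64), and the high mobility group genes hmgb2a and hmgb2b rose by 3.13 and 3.10 on the log2 scale.

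The machinery of growth moved with the cycle to a smaller degree. Of 23 G1 genes 14 rose and 3 fell (median 1.54, against 19.1% of all genes higher and 22.3% lower). The cyclin ccnd1, which links growth signals to the cycle, stood at 285 (injured with MTZ), 181 (uninjured with MTZ), 177 (injured) and 533 CPM (uninjured) in cycling cells, against 57.2 to 81.1 CPM in other cells (log2 fold change 2.03). Cyclin E genes ccne1 and ccne2 rose by 2.69 and 3.63 and the kinase gene cdk2 by 3.85. The inhibitor cdkn1a, the p21 target of p53, was also higher, at 401 (injured with MTZ), 554 (uninjured with MTZ), 223 (injured) and 503 CPM (uninjured), against 88.5 (injured with MTZ), 209 (uninjured with MTZ), 63.7 (injured) and 126 CPM (uninjured) in other cells (log2 fold change 1.89, SE 0.16, edgeR adjusted p = 1.78e-09). The 3 genes that fell were rbl2, the pocket protein of resting cells (−1.76), and the p27 genes cdkn1ba (−0.73) and cdkn1bb (−0.51). The calls of cdkn1ba and cdkn1bb were lost without the uninjured library with MTZ (−0.67 and −0.47), without the injured library (−0.66 and −0.47) and without the uninjured library (−0.62 and −0.39). Of 21 genes of ribosome biogenesis and MYC 18 rose (median 1.45), among them npm1a, nucleophosmin (2.58), and dkc1, which modifies ribosomal RNA (2.82), while mycb fell (−0.66), a call lost without the uninjured library with MTZ (−0.47) and without the injured library (−0.45). Nucleotide synthesis genes rose in 12 of 18 cases (median 1.23), led by thymidine kinase tk1 (7.59) and the serine hydroxymethyltransferase shmt1 (4.19).

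The cells still carried the markers of radial glia. Of 295 cycling cells 291 (98.6%) showed 3 or more radial glia markers, against 96.0% of other cells. After thinning 92.7% of cycling cells did so, against 93.8% of other cells and 13.4% of neuron-marker cells. The fatty acid binding protein gene fabp7a was seen in 95.5% of thinned cycling cells, against 94.0% of other cells and 17.2% of neuron-marker cells. The glial filament gene gfap was seen in 20.4%, against 39.7% of other cells and 3.82% of neuron-marker cells, and without thinning in 63.7% of cycling cells, against 65.0% of other cells. Nearly all cycling cells thus carried radial glia markers, as did most other cells of this sorted set, at a lower share of gfap per UMI. At least 3 immature neuron markers were seen in 47.1% of the cycling cells, as given below. Whether a cell was a radial glia cell or a progenitor that kept these markers was not tested.

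Genes of radial glia held a smaller share of the mRNA in cycling cells. Of 19 tested, 16 fell and none rose (median −1.25, against −0.13 for all genes, of which 22.3% fell), and vim, nes and msi1 did not pass the test. Glutamine synthetase glula stood at 3595 (injured with MTZ), 4812 (uninjured with MTZ), 2331 (injured) and 3226 CPM (uninjured) in cycling cells. In other cells it stood at 12644 (injured with MTZ), 15023 (uninjured with MTZ), 10075 (injured) and 16465 CPM (uninjured) (log2 fold change −1.95, SE 0.18, edgeR adjusted p = 6.14e-09), and no library of cycling cells reached the lowest level in other cells. The gap junction gene cx43 stood at 648 to 1367 CPM, against 2590.4 to 5072 CPM in other cells (log2 fold change −1.69), and the glutamate transporter slc1a2b at 2561 to 4253 CPM, against 8994 to 13629.7 CPM (−1.59). Again without overlap, gfap stood at 413 (injured with MTZ), 233 (uninjured with MTZ), 253 (injured) and 326 CPM (uninjured) in cycling cells, against 711 (injured with MTZ), 495 (uninjured with MTZ), 620.4 (injured) and 567 CPM (uninjured) in other cells (log2 fold change −0.96, SE 0.16, edgeR adjusted p = 3.30e-05). The stem cell factor sox2 was 279.7 to 485 CPM, against 512 to 787 CPM (−0.72), and fabp7a 10755 to 17042 CPM, against 19559 to 39319 CPM (−0.99).

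In UMIs per cell the picture for radial glia genes was split. The list summed to 260.7 UMIs per cycling cell (injured with MTZ), 235 (uninjured with MTZ), 251.7 (injured) and 209.4 (uninjured), against 276.9 (injured with MTZ), 265 (uninjured with MTZ), 280.8 (injured) and 331.4 (uninjured) per other cell. On this scale, where 2.96% of all genes were lower, 8 of the 19 genes were lower: glula (−0.92, adjusted p = 8.40e-06 by edgeR), cx43 (−0.66), slc6a11b (−0.63), slc1a2b (−0.56), sparc (−0.52), slc4a4a (−0.50), atp1a1b (−0.49) and mfge8a (−0.47). These are genes of glutamate and GABA uptake, ion transport, gap junctions and matrix. By contrast gfap (0.06, adjusted p = 0.784), fabp7a (0.04, adjusted p = 0.875), s100b (0.14) and sox2 (0.30) did not pass the test per cell, so for them only the share of the mRNA passed the test. The intermediate filament genes vim (0.79) and nes (1.14) and the RNA-binding protein gene msi1 (0.64), known from neural stem cells of vertebrates, were higher per cell. These were 3 of the 19 genes, a smaller share than the 57.8% of all genes. The median of all genes stood at 0.89 on this scale, above vim and msi1.

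**Figure D4:**
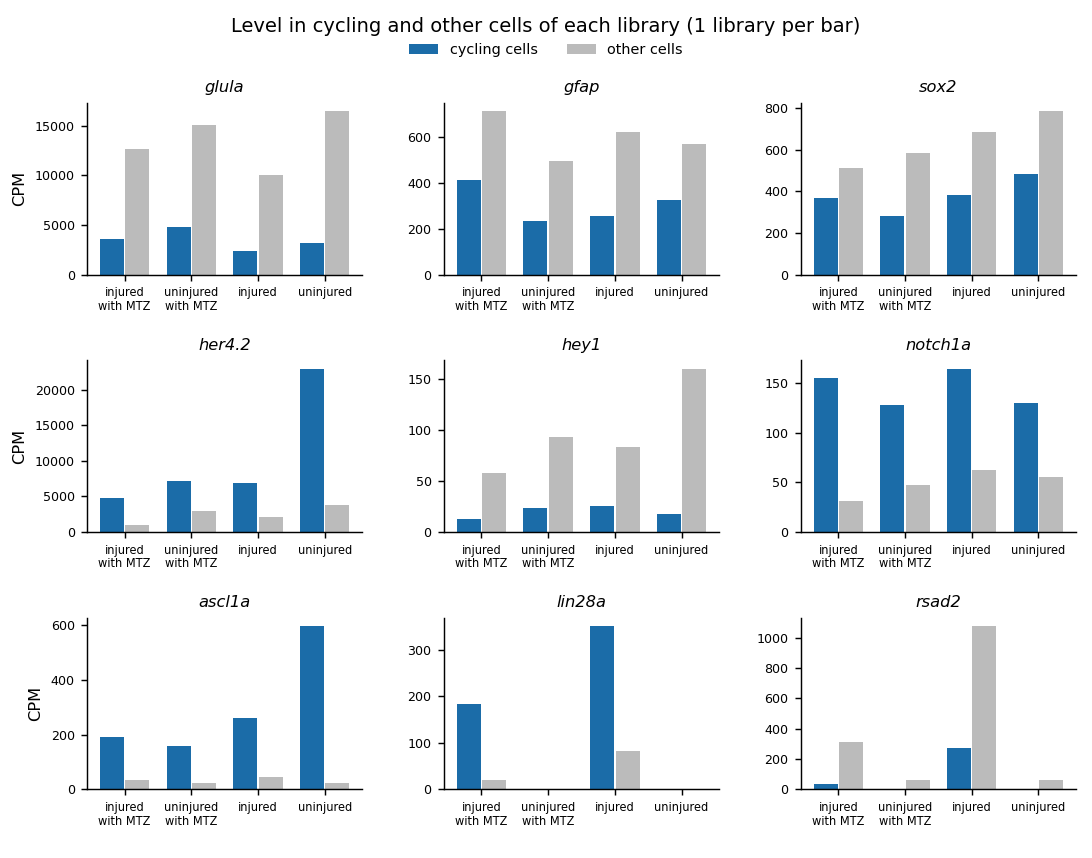
Levels of 9 genes in CPM (y axes, each from 0) in cycling cells (blue) and other cells (grey) of each library, 1 library per bar and no error bar. The levels of glula, gfap, sox2, hey1 and rsad2 are lower in cycling cells of every library, those of her4.2, notch1a and ascl1a higher, and among cycling cells lin28a has UMIs in the injured libraries alone.

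Notch pathway genes went both ways: of 25 tested among 31 in the files, 13 rose and 10 fell (median 0.46, against 19.1% of all genes higher and 22.3% lower). Among receptors notch1a stood at 156 (injured with MTZ), 128 (uninjured with MTZ), 165 (injured) and 130.2 CPM (uninjured) in cycling cells, against 31.0 (injured with MTZ), 47.2 (uninjured with MTZ), 62.0 (injured) and 55.0 CPM (uninjured) in other cells (log2 fold change 1.70, SE 0.19, edgeR adjusted p = 1.39e-07), and notch1b rose by 2.28. The receptors notch2 (−0.95) and notch3 (−0.80) fell, with notch3 at 314 to 478 CPM, against 617 to 937 CPM in other cells. The ligands of the Delta family rose: dla stood at 665 (injured with MTZ), 664 (uninjured with MTZ), 397 (injured) and 1379 CPM (uninjured) in cycling cells, against 188 to 301 CPM in other cells (log2 fold change 1.64), and dlc and dld rose by 3.58 and 2.88. The glycosyltransferase lfng, which tunes the response of Notch to its ligands, rose by 0.97.

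Target genes divided by family. The her4 genes and the her15 genes, transcription repressors switched on by Notch, rose by 0.93 for her4.1, 1.995 for her4.2, 1.095 for her4.3, 1.36 for her4.4, 2.28 for her15.1 and 2.14 for her15.2. Members of the her4 family and the 2 her15 genes are near-identical tandem copies, so how the counting split their reads is uncertain. In cycling cells her4.2 stood at 4800.2 (injured with MTZ), 7155 (uninjured with MTZ), 6935 (injured) and 22966 CPM (uninjured), against 1017 (injured with MTZ), 2983 (uninjured with MTZ), 2052 (injured) and 3829.5 CPM (uninjured) in other cells. The hey genes fell: hey1 stood at 12.9 (injured with MTZ), 23.3 (uninjured with MTZ), 25.5 (injured) and 17.8 CPM (uninjured) in cycling cells, against 57.7 (injured with MTZ), 93.2 (uninjured with MTZ), 83.3 (injured) and 159.9 CPM (uninjured) in other cells (log2 fold change −2.03, SE 0.23, edgeR adjusted p = 2.02e-07), and hey2 (−1.35) and heyl (−2.05) fell. The heyl call was lost without the injured library (−1.40, adjusted p = 0.149). In the zebrafish pallium hey1 is known as a target of Notch3 with a part in keeping radial glia as stem cells. Likewise lower were her6 (−0.82), id1 (−0.95), id2b (−1.16) and id4 (−1.41), and id1 is known in this tissue as a brake on stem cell activation. The id4 call was lost without the injured library with MTZ (−1.04, adjusted p = 0.0609). In UMIs per cell hey1 was the 1 gene of the 25 that stayed lower (−1.01), 16 were higher, and notch3 (0.23), her6 (0.21) and id1 (0.08) did not pass the test. With cells thinned to 1000 UMIs hey1 was seen in 1.38% of cycling cells, against 7.13% of other cells and 0.637% of neuron-marker cells.

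Genes of the step towards neurons were higher in cycling cells. The proneural factor ascl1a, which drives stem cells into neurogenesis, stood at 193 (injured with MTZ), 157 (uninjured with MTZ), 263 (injured) and 598 CPM (uninjured) in cycling cells, against 35.3 (injured with MTZ), 24.3 (uninjured with MTZ), 46.2 (injured) and 23.9 CPM (uninjured) in other cells (log2 fold change 3.04, SE 0.26, edgeR adjusted p = 1.63e-09). After thinning it was seen in 14.5% of cycling cells, against 2.50% of other cells and none of 157 neuron-marker cells, and dla in 34.6%, against 11.6% and none. Of 13 proneural and neuronal genes tested, among 26 in the files, 7 rose and 1 fell (median 0.62, against −0.13 for all genes), where 19.1% of all genes rose and 22.3% fell. On the scale of UMIs per cell 12 of the 13 were higher and none lower (median 1.69), against 57.8% and 2.96% of all genes. The microtubule regulator stmn1b stood at 2033 (injured with MTZ), 3484 (uninjured with MTZ), 1934 (injured) and 1788 CPM (uninjured) in cycling cells, against 137 to 481 CPM in other cells (log2 fold change 2.85). The autophagy gene tp53inp2, given here with these genes, rose by 3.70, and the zinc finger gene insm1b rose by 1.89. The insm1b call was lost without the injured library (1.38, adjusted p = 0.0511). The neuronal RNA-binding protein gene elavl4 fell (−0.84), but its change was 0.94 once cells with at least 6 markers of neurons or microglia were left out, when 10 of the 13 genes rose and none fell (median 1.62). At least 3 immature neuron markers were seen in 47.1% of cycling cells, against 8.49% of other cells and 86.4% of neuron-marker cells, at their own depths.

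Markers of mature neurons were lower in cycling cells. All 6 mature neuron genes tested fell, against 22.3% of all genes, and 4 of them were also lower in UMIs per cell, against 2.96%. The synaptic gene snap25a stood at 0 to 5.83 CPM, against 8.11 to 269 CPM in other cells (−4.29 per cell). Without the neuron-marker and microglia-marker cells 2 of the 6 genes still fell. The summed level of the 19 mature neuron markers was 123 CPM (injured with MTZ), 99.04 (uninjured with MTZ), 159 (injured) and 94.7 CPM (uninjured) in cycling cells, against 1934 (injured with MTZ), 151 (uninjured with MTZ), 614 (injured) and 439 CPM (uninjured) in other cells. The microglia list summed to 948 CPM (injured with MTZ, 21 of 22 markers with a UMI), 17.5 (uninjured with MTZ, 3 markers), 53.5 (injured, 7 markers) and 11.8 CPM (uninjured, 2 markers) in cycling cells. Of its 10 genes tested 7 fell, 1 without the neuron-marker and microglia-marker cells, and 4 were lower in UMIs per cell, against the same 22.3% and 2.96% of all genes. By contrast the 9 immature neuron markers summed to 2471 CPM (injured with MTZ), 3898 (uninjured with MTZ), 2632 (injured) and 2409 CPM (uninjured) in cycling cells. In other cells they summed to 1231 (injured with MTZ), 312 (uninjured with MTZ), 950.5 (injured) and 684 CPM (uninjured). Most of the sum in cycling cells was stmn1b. It held 16.42 of 19.95 UMIs per cell (injured with MTZ), 20.62 of 23.07 (uninjured with MTZ), 19.13 of 26.03 (injured) and 13.73 of 18.5 (uninjured). Of the 7 immature neuron genes tested, 3 rose and 1 fell in CPM (median 0.59), against 19.1% and 22.3% of all genes. In UMIs per cell 6 of the 7 were higher and none lower (median 1.66), against 57.8% and 2.96%. Further lists went both ways. Summed levels of mural, fibroblast and erythrocyte markers were lower in cycling cells of every library. Those of oligodendrocyte precursor markers were higher, and most of their sum was ppp1r14bb. It held 1.12 of 1.344 UMIs per cycling cell (injured with MTZ), 0.897 of 1.414 (uninjured with MTZ), 1.361 of 1.882 (injured) and 0.909 of 1.091 (uninjured). Of the 4 precursor genes tested, ppp1r14bb alone was called higher and 3 were not called (median −0.08).

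The regeneration factor lin28a, an RNA-binding protein known from fish retina for its role when Müller glia divide after injury, was highest in cycling cells of the injured libraries. It stood at 182 (injured with MTZ), 0 (uninjured with MTZ), 351 (injured) and 0 CPM (uninjured) in cycling cells, against 19.4 (injured with MTZ), 0.579 (uninjured with MTZ), 81.9 (injured) and 0.362 CPM (uninjured) in other cells (log2 fold change 2.61, SE 0.25, edgeR adjusted p = 8.56e-09). Cells with a UMI numbered 7 of 125 (injured with MTZ), 0 of 29 (uninjured with MTZ), 27 of 119 (injured) and 0 of 22 (uninjured) among cycling cells, against 16 of 1501 (injured with MTZ), 2 of 1319 (uninjured with MTZ), 31 of 959 (injured) and 1 of 709 (uninjured) among other cells. Without the library as a block the change was of like size but not called (2.59, adjusted p = 0.133). Between injured and uninjured libraries the level in cycling cells was at least 10.4-fold higher with MTZ and at least 19.8-fold higher without, taking 3 counts per library as the floor. By cells, the share with a UMI was 5.6% (exact interval 2.28 to 11.2%) in the injured library with MTZ, against an interval that reaches 11.9% in the uninjured library with MTZ, so by cells the intervals of the libraries with MTZ overlap. Without MTZ it was 22.7% (15.5 to 31.3%) in the injured library, against an interval that reaches 15.4% in the uninjured library. After thinning lin28a was seen in 6.57% of cycling cells, against 0.566% of other cells and none of 157 neuron-marker cells.

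Of 14 reactive glia genes tested, among 17 in the files, lin28a rose and 7 fell in CPM (median −0.41), against 19.1% and 22.3% of all genes: the apolipoprotein genes apoc1 (−3.10) and apoeb (−1.92), the chemokine ccl19a.1 (−1.93), the stress factor nupr1a (−0.98), the galectin lgals2a (−0.94), and the AP-1 genes jun (−0.71) and junba (−0.45). In UMIs per cell 8 of the 14 were higher and 3 lower (median 0.62), against 57.8% and 2.96% of all genes. The 3 lower per cell were apoc1 (−2.17), apoeb (−0.95) and ccl19a.1 (−0.85), while junba was higher (0.58) and nupr1a (0.04), lgals2a (0.08) and jun (0.32) did not pass the test. In CPM, without the uninjured library with MTZ jun (−0.50) and junba (−0.36) were not called, nor was junba without the injured library with MTZ (−0.50) or without the injured library (−0.35). The level of apoc1, also a microglia marker, rested on the injured library with MTZ, at 243 (injured with MTZ), 0 (uninjured with MTZ), 8.50 (injured) and 0 CPM (uninjured) in cycling cells, where 1 cell held 79.2% of its 245 UMIs. The membrane protein gene anxa2a (−0.21, adjusted p = 0.473) and the complement gene c7b (0.20, adjusted p = 0.48) did not pass the test. Among 9 STAT3 pathway genes crlf1a and socs3b rose (0.79 and 0.69) and socs3a and pim1 fell (−1.27 and −0.79), counts close to the background of 19.1% and 22.3%. Of the 9 genes 5 were higher in UMIs per cell and none lower (median 0.94, where the median gene stood at 0.89), and socs3a (−0.25) and pim1 (0.24) did not pass the test. The crlf1a call was lost without the injured library (0.55, adjusted p = 0.377) or without the uninjured library (0.73), and the socs3b call without the uninjured library (0.35).

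Among 19 interferon genes tested, of 24 in the files, 8 fell and 2 rose in CPM (median −0.25), against 22.3% and 19.1% of all genes. In UMIs per cell 12 of the 19 were higher and 1 lower (median 0.77), close to the 57.8% and 2.96% of all genes. The antiviral enzyme rsad2, viperin, fell most: it stood at 34.7 (injured with MTZ), 0 (uninjured with MTZ), 275 (injured) and 0 CPM (uninjured) in cycling cells, against 311 (injured with MTZ), 63.1 (uninjured with MTZ), 1078 (injured) and 64.1 CPM (uninjured) in other cells (log2 fold change −2.57, SE 0.27, edgeR adjusted p = 4.51e-08), and it was the 1 gene lower per cell (−1.57). The RNA sensor gene dhx58 (−1.50) and isg15, a ubiquitin-like protein gene (−0.76), fell in CPM and did not pass the test per cell (−0.45 and 0.24), while psmb9a, an immunoproteasome subunit, rose by 1.001, a call lost without the injured library (0.84, adjusted p = 0.132). The isg15 call was lost without the injured library with MTZ (log2 fold change −0.52, adjusted p = 0.163). Cholesterol synthesis showed 2 genes up, the isomerase ebp (0.86) and the LDL receptor ldlra (0.75), and 4 down, among them msmo1 (−0.71), cyp51 (−0.80) and sc5d (−1.13), of 20 tested, where 19.1% of all genes rose and 22.3% fell. Counted per cell, 10 of the 20 were higher and none lower (median 0.73), against 57.8% and 2.96% of all genes. The cyp51 call was lost without the uninjured library with MTZ (−0.68), and those of cyp51 (−0.42) and msmo1 (−0.51) without the injured library.

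Ranked by fold change among genes called in the same direction in all 4 libraries and spread over many cells, the 15 highest outside the rule were mostly known genes of division. They included the nucleoside transporter slc29a2, at 78.3 (injured with MTZ), 40.8 (uninjured with MTZ), 99.4 (injured) and 71.0 CPM (uninjured) in cycling cells, against 0 to 0.579 CPM in other cells (log2 fold change 8.05). The spindle genes dlgap5 (7.78), aspm (7.78) and tpx2 (7.10), the kinetochore genes cenpf (7.39) and spc25 (5.87), the checkpoint gene mad2l1 (6.96) and the condensin gene smc2 (6.21) were among them. So were cks2 (5.88), a subunit of cyclin-dependent kinases, cdca7a (6.24) and rtkn2a (6.22). The other 4 carry provisional names: zgc:110540 (7.77, at 87.4 to 178 CPM, against 0.308 to 1.09 CPM in other cells), CABZ01058261.1 (6.76), si:ch211-266i6.3 (6.03) and si:dkey-108k21.10 (5.92).

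The 15 lowest were of mixed kinds. The prostaglandin D synthase genes ptgdsb.1 and ptgdsb.2 were the most abundant: ptgdsb.1 stood at 503 (injured with MTZ), 221 (uninjured with MTZ), 159.7 (injured) and 414 CPM (uninjured) in cycling cells, against 1868 (injured with MTZ), 2684 (uninjured with MTZ), 829 (injured) and 1567 CPM (uninjured) in other cells (log2 fold change −2.35, SE 0.21, edgeR adjusted p = 5.40e-09), and ptgdsb.2 at 391 to 635 CPM, against 1738 to 3027 CPM (−2.23). Both stayed lower per cell (−1.33 and −1.21), as did the secreted protein gene ndnf (−2.21, −1.19 per cell). The chaperone gene dnajb4 stood at 8.92 (injured with MTZ), 0 (uninjured with MTZ), 9.35 (injured) and 11.8 CPM (uninjured) in cycling cells, against 47.8 to 106 CPM in other cells (−3.13, −2.12 per cell), and aspa, which splits N-acetylaspartate, at 3.96 to 11.7 CPM, against 23.3 to 90.1 CPM (−3.08, −2.03 per cell). The planar polarity gene prickle1b (−2.47, −1.48 per cell), the chemokine scavenger ackr4b (−2.41, −1.40 per cell) and the adhesion receptor adgrb1a (−2.35, −1.35 per cell) followed. The rest were zgc:65894 (−2.64), rergla (−2.29), phyhiplb (−2.19), si:ch211-180a12.2 (−2.37), si:dkey-205h13.1 (−2.27), si:dkeyp-73d8.6 (−2.19) and ywhag2 (−2.25). For ywhag2 the change was 0.05 without cells that carried markers of neurons or microglia.

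Within the cycling cells, glial and neuronal genes varied with the number of G2 and mitosis genes. The cells were read in the 3 ranges given above, with none (97 cells, median 6771 UMIs), with 1 or 2 (81 cells, 6632 UMIs) and with at least 3 of those genes (117 cells, 8863 UMIs). These ranges have no natural edge, they differ in depth, and the values below are over all libraries, with no test. In this order glula stood at 4806, 4358 and 1313 CPM, slc1a2b at 5077, 4252 and 1981 CPM, cx43 at 1388, 1208 and 525 CPM, gfap at 537, 361 and 167 CPM and fabp7a at 17111, 15895 and 7517 CPM. All were lowest in the cells with the most mitosis genes, as was vim (801, 552 and 257 CPM). The glial genes s100b (1975, 2036 and 2265 CPM) and msi1 (319, 342 and 269 CPM) varied by less. The median number of radial glia markers per cell was 15, 15 and 12, and 75.3%, 66.7% and 52.1% of cells had UMIs of both gfap and fabp7a.

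Of 19 radial glia genes with at least 10 UMIs, 17 were lower in cells with at least 3 mitosis genes than in cells with none, against 5777 of all 10727 genes. Their median log2 ratio was −1.29, against −0.10 over all genes. Genes of the proneural and neuronal list went both ways: 11 of 17 were higher and 6 lower (median 0.83), where 4948 of all 10727 genes were higher. The genes shown next are ones that were higher. In the same order the neuronal genes stmn1b stood at 599.5, 1361 and 3342 CPM, elavl3 at 39.0, 65.3 and 204 CPM and tubb5 at 73.7, 102 and 222 CPM. The autophagy gene tp53inp2, whose level was low in the cells with few mitosis genes, stood at 15.3, 17.5 and 178 CPM. Chromatin genes ran the same way, higher in 23 of 23 cases (median 0.98), with hmgn2 at 1851, 4639.9 and 11087 CPM and hmgb2a at 452, 747 and 2907 CPM. The reactive gene anxa2a (392.3, 185 and 64.4 CPM) and the interferon gene rsad2 (337, 105 and 42.4 CPM) were highest in cells with no mitosis gene, and the G1 cyclin ccnd1 (299, 337 and 161 CPM) was lowest in cells with at least 3. The proneural gene ascl1a (281, 269 and 221 CPM) and her4.1 (3455, 4929.6 and 4742 CPM) moved by less than 1.5-fold, and lin28a was highest in cells with at least 3 (116, 182 and 339 CPM). All 14 microglia genes with at least 10 UMIs were higher in cells with at least 3 mitosis genes (median 4.13), and their part in the values above was not tested.

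The lesion was compared in cycling cells of injured and uninjured libraries, separately with and without MTZ. Levels carry exact Poisson intervals and log2 ratios exact binomial intervals for counting error only, and the uninjured libraries held 29 cycling cells with MTZ and 22 without. Among genes with at least 100 UMIs in the pair, 8.12% of 1638 were at least 2-fold higher and 1.71% at least 2-fold lower with MTZ. Without MTZ 6.96% of 1766 were at least 2-fold higher and 5.27% lower. In all, 109 genes were higher and 20 lower with intervals clear of 0 in both arms and no single cell holding over 20% of the gene's UMIs in the library where it was higher.

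Interferon genes were among those that were higher. The interferon-induced gene ifi45 stood at 1887 (injured with MTZ), 152 (uninjured with MTZ), 3195 (injured) and 449.9 CPM (uninjured), with log2 ratios of 3.64 with MTZ (3.08 to 4.26) and 2.83 without (2.50 to 3.18). The interferon list had a median log2 ratio of 1.81 with MTZ and 2.63 without, against medians of all genes of 0.04 and −0.08, and 4 of its 6 genes with at least 100 UMIs were at least 2-fold higher with MTZ (background 8.12%) and 3 of 7 without (background 6.96%). Its member isg15 stood at 132 (injured with MTZ), 5.83 (uninjured with MTZ), 838 (injured) and 17.8 CPM (uninjured) in cycling cells, against 296 (injured with MTZ), 28.1 (uninjured with MTZ), 993 (injured) and 48.1 CPM (uninjured) in other cells, so it was high in the injured libraries in both kinds of cell. The growth factor gene hbegfa, which in the fish retina takes part in the reprogramming of glia, stood at 1433 (injured with MTZ), 344 (uninjured with MTZ), 1029.8 (injured) and 184 CPM (uninjured), with log2 ratios of 2.06 with MTZ and 2.49 without. The chemokine cxcl18b stood at 714 (injured with MTZ), 111 (uninjured with MTZ), 1149 (injured) and 314 CPM (uninjured), with log2 ratios of 2.69 and 1.87. In each of these both injured libraries lay above both uninjured ones.

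Of reactive glia genes 5 of 12 with at least 100 UMIs were at least 2-fold higher with MTZ and 6 of 13 without, against backgrounds of 8.12% and 6.96%, with medians of 1.02 and 1.59. The galectin lgals2a stood at 823 (injured with MTZ), 478 (uninjured with MTZ), 1068 (injured) and 231 CPM (uninjured), with log2 ratios of 0.78 with MTZ and 2.21 without. The membrane protein anxa2a stood at 188 (injured with MTZ), 17.5 (uninjured with MTZ), 230.3 (injured) and 59.2 CPM (uninjured), with log2 ratios of 3.43 and 1.96. The apolipoprotein gene apoeb stood at 129 (injured with MTZ), 11.7 (uninjured with MTZ), 504 (injured) and 11.8 CPM (uninjured), with log2 ratios of 3.47 and 5.41, its uninjured values resting on 2 UMIs each. The secreted chaperone clu stood at 83.2 (injured with MTZ), 29.1 (uninjured with MTZ), 259 (injured) and 11.8 CPM (uninjured), with wide intervals of 0.24 to 3.17 with MTZ and 2.59 to 7.504 without. The protease inhibitor timp2b had no UMI in the uninjured library with MTZ, and its log2 ratio without MTZ was 4.04. With 3 counts taken as the floor, it was 4.195-fold higher in the injured library with MTZ, where the lower interval bound was a log2 ratio of 1.735. The AP-1 gene fosl1b had no UMI in either uninjured library. By the same floor it was 2.33-fold higher with MTZ and 3.21-fold higher without, and the lower interval bounds were log2 ratios of 0.85 and 1.34. The other genes chosen by this ranking were tcima (0.74 and 2.50), ip6k2b (1.92 and 2.71) and si:dkey-188i13.10 (4.44 and 3.03). The STAT3 feedback gene socs3a differed in size, with 1.94 with MTZ and 0.29 without, a difference that was not tested. With each gene counted at most once per cell, the median of the reactive list was −0.01 with MTZ and −0.04 without, and the ratio of lgals2a with MTZ was −0.01.

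Of the 10 lower genes of the ranking, 5 were Notch targets of the her families, and ebp and insig1 belong to sterol synthesis and its control. Among her genes her4.2 stood at 4800.2 (injured with MTZ), 7155 (uninjured with MTZ), 6935 (injured) and 22966 CPM (uninjured), with log2 ratios of −0.58 with MTZ and −1.73 without. Lower as well were her4.1 (−0.89 and −1.04), her4.3 (−0.96 and −1.32), her15.1 (−0.26 and −1.45) and her15.2 (−0.73 and −1.20). Of 16 Notch pathway genes with at least 100 UMIs, 2 were at least 2-fold lower with MTZ (background 1.71%) and 10 without (background 5.27%). The median of the list was −0.28 with MTZ and −0.92 without. In other cells the list summed to 10298 (injured with MTZ), 21750 (uninjured with MTZ), 12843 (injured) and 24944 CPM (uninjured). Its summed level was thus lower after injury in both kinds of cell. The inhibitor of differentiation id2b stood at 414 (injured with MTZ), 891 (uninjured with MTZ), 136 (injured) and 1314 CPM (uninjured), with log2 ratios of −1.11 and −3.27. Without MTZ the ligand dla (−1.80) and ascl1a (−1.19) were lower too, while with MTZ dla stood at 0.00 and the interval of ascl1a spanned 0 (−0.29 to 0.93).

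Sterol genes had a median log2 ratio of −0.92 with MTZ and −2.30 without. Other cells also had less of them after injury: the list summed to 1130 (injured with MTZ), 3508 (uninjured with MTZ), 836 (injured) and 2704 CPM (uninjured). In cycling cells the feedback regulator insig1 stood at 412 (injured with MTZ), 839 (uninjured with MTZ), 203 (injured) and 811 CPM (uninjured), with log2 ratios of −1.03 and −1.998. The isomerase ebp stood at 54.5 (injured with MTZ), 122 (uninjured with MTZ), 16.99 (injured) and 142 CPM (uninjured), with log2 ratios of −1.17 and −3.06. The demethylase cyp51 (−1.22 and −4.66) and the oxidase msmo1 (−1.13 and −3.04) followed. The cell cycle inhibitor cdkn1a stood at 401 (injured with MTZ), 554 (uninjured with MTZ), 223 (injured) and 503 CPM (uninjured), with log2 ratios of −0.46 and −1.18. The AP-1 repressor jdp2b had ratios of −0.30 and −1.14, and hs3st1l2, a heparan sulfate enzyme gene, −0.84 and −1.69. After thinning the ratios with MTZ turned to 0.82 for ebp and 0.21 for cdkn1a, and among cells with at least 4 genes of the rule that of jdp2b with MTZ was 0.12.

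Lists of division genes had medians near 0 between injured and uninjured cycling cells. Cells of every library were chosen by genes of the same process, so these levels were set in part by the rule. They describe the chosen cells, and whether the lesion changed division genes was not tested. The replication list had a median log2 ratio of 0.28 with MTZ and −0.09 without, mitosis genes −0.23 and −0.08, chromatin genes 0.00 and 0.19, and radial glia genes −0.04 and −0.33. With MTZ 3 of 24 replication genes with at least 100 UMIs were at least 2-fold higher (background 8.12%), and 2 of 32 without (background 6.96%), close to the background in both arms. Among the mitosis genes with at least 100 UMIs, none of 14 reached a 2-fold change with MTZ and 1 of 12 was lower without (background 5.27%). The proliferation marker mki67, a gene of the rule, stood at 298 (injured with MTZ), 297 (uninjured with MTZ), 281 (injured) and 201 CPM (uninjured).

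**Figure D5:**
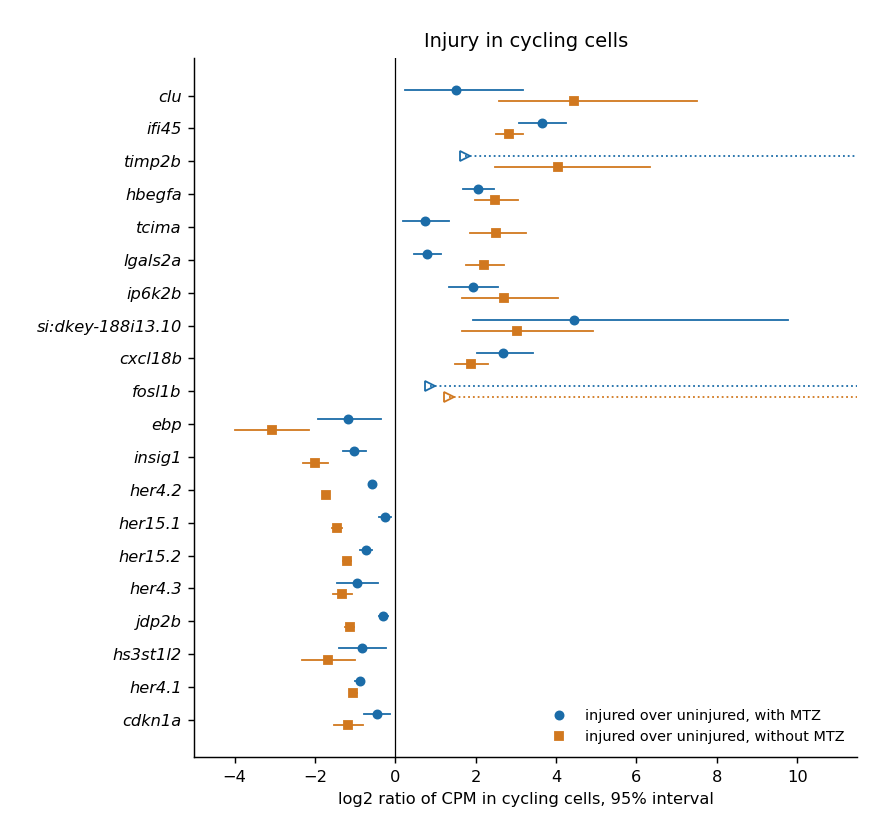
Log2 ratios of CPM in cycling cells, injured over uninjured (x axis), with MTZ (circles) and without (squares), for the 10 higher and 10 lower genes ranked by the interval bound nearest 0 without MTZ. Lines are 95% intervals for counting error, and open triangles with dotted lines are lower bounds for genes with no UMI in the uninjured library. Ratios of the her4 and her15 genes lie below 0 in both arms, and those of ifi45, hbegfa and cxcl18b above 0.

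MTZ was compared between the injured libraries, where 2.03% of 2810 genes with at least 100 UMIs were at least 2-fold higher with MTZ and 2.17% at least 2-fold lower. Interferon genes were lower with MTZ: the list had a median log2 ratio of −1.33, and 5 of 10 genes with at least 100 UMIs were at least 2-fold lower (background 2.17%). Of its members isg15 stood at 132 CPM in the injured library with MTZ, against 838 CPM in the injured library (−2.67, −2.94 to −2.41), and rsad2 at 34.7 CPM, against 274.5 CPM (−2.98). The further interferon-induced genes mxe (−5.42) and ifit16 (−3.62) rested on 1 UMI and 3 UMIs with MTZ. The galectin lgals17 (−3.11) and the natriuretic peptide nppc (−2.17) completed the 5 lower genes of the ranking. Complement c7b (−2.63), apoeb (−1.97) and lin28a (−0.94) were lower with MTZ as well. The 5 higher genes were sept8b (3.49), zc2hc1c (3.92), the chemokine scavenger ackr3b (3.06), the axon guidance gene draxin (2.78) and the lipase lipg (2.195). Here lipg stood at 159.5 CPM in the injured library with MTZ, against 34.8 CPM in the injured library, while the uninjured libraries had 221 CPM with MTZ and 302 CPM without.

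Sterol genes were higher with MTZ among the injured libraries (median 1.01, with 3 of 6 genes with at least 100 UMIs at least 2-fold higher, background 2.03%), proneural and neuronal genes had a median of −0.59, and radial glia genes 0.33. The microglia list was higher (median 5.24), with apoc1 at 243 CPM in the injured library with MTZ, against 8.50 CPM in the injured library, and 2 cycling cells with MTZ carried at least 6 microglia markers. Replication genes (−0.16) and mitosis genes (0.28) differed by less. Each of these values compares 1 library with 1 library, and the fish of the libraries with MTZ carried a further transgene.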

How the data were processed

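Per the labels, dTomato-positive cells of 4 pools were sequenced with 10x Chromium chemistry and aligned to GRCz11; the matrix header names Cell Ranger 4.0.0 and the submitters' processing notes 3.1.0. The authors deposited raw UMI counts (25107 features under 24435 symbols, summed per symbol). Cells were kept from 300 genes upward and up to 25% mitochondrial UMIs. The members, gene lists and tests were chosen with earlier results of these data known. UMIs were summed per library over cycling and other cells and compared with edgeR 4.0.16 in R 4.3.3 (quasi-likelihood test, TMM scaling, filter on low counts, library block, 3 residual degrees of freedom, Benjamini-Hochberg threshold 0.05). The UMIs-per-cell fit used the number of cells as offset and was chosen after seeing the data. Libraries were compared by CPM with exact 95% intervals, and list medians used a prior count of 0.5 over genes with at least 10 UMIs. Genes named outside the lists were the 15 most changed in each direction with the same direction in 4 libraries, at least 200 UMIs, UMIs in at least 20 cycling or 200 other cells and at most 10% of UMIs in 1 cell. For injury they were the 10 in each direction, and for MTZ the 5, whose interval lay clear of 0 by the widest margin (for injury without MTZ, among genes clear of 0 in both arms), and at most 20% of UMIs in 1 cell. Doublets were scored with Scrublet in scanpy 1.11.5, and the top 0.8% per 1000 barcodes were left out only as an alternative. The scripts were tested on simulated data. Depth ranged between 2942274 and 7541363 UMIs per library. The alternatives were other rule thresholds, cell filters, scalings and block choices, DESeq2 1.42.0, thinning, and leaving out libraries or marker cells.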

Additional observations from a re-analysis of the deposited data

Results flagged for a closer look

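For 19 genes the interval of the log2 ratio of injured over uninjured cycling cells lay wholly above 0 in one arm and wholly below 0 in the other. All 19 are genes of the rule, the lists or the rankings above, and no share over all genes is given for this count. The difference between the arms was not tested, and it rests on 29 uninjured cells with MTZ and 22 without. Higher after injury with MTZ and lower without were the cyclin genes ccnd1 (0.66 with MTZ, −1.59 without) and ccnd2a (1.35, −1.47), the growth regulators mycb (0.56, −1.70) and btg2 (0.83, −0.83), the immediate early genes atf3 (0.24, −0.28), jun (0.30, −0.98) and junba (0.30, −0.66), and the kinase gene pim1 (0.86, −0.26). The same held for pcna (0.31, −0.30), the carbonic anhydrase gene cahz (0.94, −1.24), the septin gene sept8b (1.39, −2.12) and the bicarbonate transporter gene slc4a4a (0.46, −0.35). The sept8b ratios rested on few UMIs: 5 (uninjured with MTZ), 8 (injured, 75% of them in 1 cell) and 5 (uninjured).

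Lower after injury with MTZ and higher without were the glial genes fabp7a (−0.42, 0.10) and s100b (−0.93, 0.82), the chromatin genes hmga1a (−0.28, 0.47), hmgb1a (−0.23, 0.56) and hmgb2a (−0.23, 0.30), the mitosis gene ube2c (−0.66, 0.86) and tp53inp2 (−0.85, 2.07). The last is an autophagy gene, given above with the proneural and neuronal genes, and its interval without MTZ was wide (0.675 to 3.97). The level of ccnd1 was 285 (injured with MTZ), 181 (uninjured with MTZ), 177 (injured) and 533 CPM (uninjured), so the uninjured library without MTZ was highest. That of s100b was 1826 (injured with MTZ), 3472 (uninjured with MTZ), 2304 (injured) and 1302 CPM (uninjured), and that of tp53inp2 84.2 (injured with MTZ), 152 (uninjured with MTZ), 99.4 (injured) and 23.7 CPM (uninjured).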

How the results depend on the processing

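Shares of cycling cells moved with the rule and the depth: in the injured library with MTZ, the uninjured library with MTZ, the injured library and the uninjured library they were 11.3, 3.64, 15.9 and 4.92% with at least 2 genes, 32.2, 15.5, 34.4 and 33.5% with at least 3 genes outside the rule, and 3.59, 1.2, 4.65 and 1.3% thinned. With at least 4 genes they were 5.35% (injured with MTZ), 8.53% (injured) and 1.78% (uninjured), and with a filter of 800 genes and 10% mitochondrial UMIs 9.56% (injured with MTZ), 3.27% (uninjured with MTZ) and 13.7% (injured). By genes outside the rule the injured share without MTZ was thus close to the uninjured one until cells were thinned, when it was 12.0% against 5.07%. Leaving out 1 library gave 1506 to 2066 genes called higher and 1627 to 2054 lower. Thinned sums gave 620 higher and 607 lower, from fewer UMIs, and without the library block 1511 were lower and 56 of 296 named or listed calls were lost. DESeq2 lost 18 of those 296 calls. Direction turned for elavl4 (0.94), syt1a (0.90), vamp2 (0.01) and ywhag2 (0.05) without neuron-marker and microglia-marker cells, an alternative chosen after seeing the data, and for mbpb (3.08) with at least 2 genes. Between libraries, counting each gene once per cell left 0% of genes at least 2-fold changed in any comparison and turned the medians with MTZ of reactive genes (−0.01), STAT3 genes (−0.02) and erythrocyte genes (−0.06), that of reactive genes without MTZ (−0.04), lgals2a with MTZ (−0.01) and epithelial genes between injured libraries (0.03). By this count a gene at many UMIs in few cells loses its weight. Thinning turned cdkn1a (0.21) and ebp (0.82) with MTZ, and at least 4 genes turned jdp2b with MTZ (0.12). TMM scaling gave 0.916% lower with MTZ, and 10.7% higher and 2.89% lower without. The cause was not tested. No paired analysis between libraries was possible because the labels give no replicate numbers and each group is 1 library. Cycling and other cells were paired within each library by the block.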

Other observations

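Among markers of other cell types the ciliary master regulator foxj1a was higher in cycling cells, at 153 (injured with MTZ), 105 (uninjured with MTZ), 189 (injured) and 184 CPM (uninjured), against 63.7 (injured with MTZ), 79.3 (uninjured with MTZ), 126 (injured) and 106 CPM (uninjured) in other cells (log2 fold change 0.83, SE 0.17, edgeR adjusted p = 4.12e-04). Of the 13 ciliated or ependymal genes tested it was the 1 that rose, and capsla fell (−1.10), where 19.1% of all genes rose and 22.3% fell. The capsla call was lost on leaving out any 1 of the 4 libraries, and capsla did not pass the test in UMIs per cell (−0.06). Single markers that rose were cldn5b, a tight junction gene used for endothelium (1.47), ppp1r14bb, listed for oligodendrocyte precursors (1.18), and cd3eap, listed for T cells by its symbol and known as a subunit of RNA polymerase I (1.60). All 3 mural genes tested fell, against 22.3% of all genes, with kcne4 (−2.35) and pdgfrb (−0.99) beside notch3, and the erythrocyte gene cahz fell (−2.09). Of 3 fibroblast genes tested 2 fell, dcn (−1.04) and col5a1 (−1.03), against the same 22.3%. None of 3 epithelial genes passed the test, and no neutrophil gene passed the filter. In UMIs per cell kcne4 (−1.32) and cahz (−1.065) were lower, while pdgfrb (0.01), dcn (−0.04) and col5a1 (−0.01) did not pass the test. In CPM the col5a1 call was lost without the injured library (−0.82) and that of cldn5b without the uninjured library (1.28).

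Each group is 1 pool, so comparisons between libraries have counting error only, and the uninjured libraries held 29 cycling cells with MTZ and 22 without. The rule sees dividing cells with enough UMIs: shallow cells in the cycle are missed, and cells at 3 genes are marked less clearly than the rest. The 4 libraries, each of a different group, block the comparison of cycling with other cells. The p-values of that comparison rest on how the difference varies between the 4 pools and on a spread that edgeR estimates across genes. Levels in CPM fall for any gene whose UMIs per cell grow less than the whole.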
